A study of Mus musculus with 9 samples.

Results

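The genes of the mouse major histocompatibility complex (MHC, called H2 in mice) that present antigen were examined in the liver, together with the genes that load and regulate them. They were taken by symbol. All genes whose symbol begins with H2- were included, except H2-Ke2 and H2-Ke6, and B2m, Cd74, Ciita, Nlrc5, Tap1, Tap2, Tapbp, Psmb8, Psmb9 and Psmb10 were added. This gave 45 of the 17846 genes measured. They were 26 class I genes (25 heavy chains and B2m), 11 class II genes (the chains, H2-DM, H2-O and Cd74), 3 peptide loading genes, 3 immunoproteasome subunits and 2 transactivators. Of these, 38 had enough reads to be tested, among them 20 class I and 10 class II genes.

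MHC class I molecules are made by nearly all nucleated cells. A heavy chain pairs with beta-2 microglobulin (B2m) and shows peptides from inside the cell to CD8 T cells. The peptides are cut by the proteasome, carried into the endoplasmic reticulum by the TAP transporter and loaded with the help of tapasin. MHC class II molecules are made mainly by dendritic cells, B cells and macrophages, and show peptides from ingested material to CD4 T cells. Hepatocytes, the main cells of the liver, normally carry class I and little or no class II. Nlrc5 is the master transactivator of class I genes and Ciita that of class II genes, and interferon gamma induces both.

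RNA was sequenced from whole liver of male wild type C57/BL mice that were fasted overnight before sacrifice, with 3 mice in each of 3 groups. Control mice ate normal chow and NASH mice ate the Ath diet, which contains cholesterol and cholate, for 20 weeks without training. NASH+Exercise mice ate the same diet for 20 weeks and ran on a treadmill for the last 8 weeks, starting after week 12 at an age of 20 weeks. The 2 questions were how these genes differ in NASH and how they differ after training. Nothing was sorted, so fewer cells of a type and less RNA per cell cannot be told apart.

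The total estimated count was between 20085976 and 22495408 per mouse. The factors by which TMM, the normalization used, scaled these totals ran from 0.800 to 0.976 for Control, from 1.09 to 1.23 for NASH and from 0.912 to 1.08 for NASH+Exercise. Without these factors the median log2 difference of all 13619 tested genes was 0.36 between NASH and Control, against 0.013 with them. Levels are given as deposited TPM, which are per transcript length and can be compared between genes. Differences are given as log2 fold changes from edgeR on TMM-scaled counts, with a standard error derived from the fold change and its F statistic. Some TPM differences are therefore larger than the fold changes beside them. A gene was called when the Benjamini-Hochberg adjusted p from edgeR was under 0.05 and the log2 fold change was beyond 1 in either direction.

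Of the 42 members with a position on the primary assembly GRCm38.p6, 37 lie on chromosome 17, between bases 33919478 and 37483554. The class II genes other than Cd74 span bases 34092379 to 34344645 of it. Tap1, Tap2, Psmb8 and Psmb9 lie inside that class II stretch, while H2-K1 lies before it and the other tested class I heavy chains with a position lie beyond it. Promoter windows of RefSeq (GRCm38.p6), each with 250 bases before the transcription start and 50 after it, were found for 32 of the 45 members. Those of 7 members are printed because they carry the letters discussed next to the values. H2-K1 (chr17:34000298-34000597, minus strand), H2-D1 (chr17:35262844-35263143, plus strand) and H2-Q10 (chr17:35469839-35470138, plus strand) are class I heavy chains. H2-Aa (chr17:34287774-34288073, minus strand), H2-Eb1 (chr17:34305617-34305916, plus strand) and H2-DMb1 (chr17:34152941-34153240, plus strand) are class II genes. The Tap1 window (chr17:34187306-34187605, plus strand) also holds the start of Psmb9 on the other strand. All are written 5′ to 3′ on the strand of the gene, and capitals mark a match to 1 of 4 short motifs on either strand.
H2-K1: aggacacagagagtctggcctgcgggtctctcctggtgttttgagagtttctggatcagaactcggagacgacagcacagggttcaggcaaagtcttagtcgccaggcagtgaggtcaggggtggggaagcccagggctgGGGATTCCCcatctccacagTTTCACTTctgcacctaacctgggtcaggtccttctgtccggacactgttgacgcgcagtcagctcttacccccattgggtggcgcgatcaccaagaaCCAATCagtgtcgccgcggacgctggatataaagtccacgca
H2-D1: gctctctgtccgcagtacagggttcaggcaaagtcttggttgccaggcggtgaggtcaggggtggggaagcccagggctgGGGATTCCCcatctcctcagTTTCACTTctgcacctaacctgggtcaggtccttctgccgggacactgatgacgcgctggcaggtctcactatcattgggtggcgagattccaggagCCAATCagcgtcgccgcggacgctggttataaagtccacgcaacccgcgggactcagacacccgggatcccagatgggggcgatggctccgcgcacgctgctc
H2-Q10: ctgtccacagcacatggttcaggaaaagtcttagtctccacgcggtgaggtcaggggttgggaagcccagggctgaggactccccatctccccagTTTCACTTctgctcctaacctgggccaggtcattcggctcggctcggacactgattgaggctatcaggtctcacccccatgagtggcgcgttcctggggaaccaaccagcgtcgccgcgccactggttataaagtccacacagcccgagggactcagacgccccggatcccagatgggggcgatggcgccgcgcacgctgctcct
H2-Aa: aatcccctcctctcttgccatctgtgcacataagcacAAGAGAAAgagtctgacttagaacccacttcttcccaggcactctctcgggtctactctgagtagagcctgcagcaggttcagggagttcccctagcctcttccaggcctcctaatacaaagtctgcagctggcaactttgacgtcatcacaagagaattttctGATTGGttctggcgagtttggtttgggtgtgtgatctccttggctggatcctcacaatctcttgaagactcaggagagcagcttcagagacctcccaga
H2-Eb1: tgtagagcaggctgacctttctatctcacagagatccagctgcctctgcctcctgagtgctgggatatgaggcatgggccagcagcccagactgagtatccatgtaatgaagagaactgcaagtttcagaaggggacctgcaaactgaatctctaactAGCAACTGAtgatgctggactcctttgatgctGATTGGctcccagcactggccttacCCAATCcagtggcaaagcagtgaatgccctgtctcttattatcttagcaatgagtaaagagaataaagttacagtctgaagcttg
H2-DMb1: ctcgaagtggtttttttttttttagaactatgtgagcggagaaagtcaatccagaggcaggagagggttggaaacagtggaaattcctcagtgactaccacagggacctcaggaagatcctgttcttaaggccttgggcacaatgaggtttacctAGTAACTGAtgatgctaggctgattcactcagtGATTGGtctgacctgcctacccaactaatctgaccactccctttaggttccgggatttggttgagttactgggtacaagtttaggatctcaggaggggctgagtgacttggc
Tap1: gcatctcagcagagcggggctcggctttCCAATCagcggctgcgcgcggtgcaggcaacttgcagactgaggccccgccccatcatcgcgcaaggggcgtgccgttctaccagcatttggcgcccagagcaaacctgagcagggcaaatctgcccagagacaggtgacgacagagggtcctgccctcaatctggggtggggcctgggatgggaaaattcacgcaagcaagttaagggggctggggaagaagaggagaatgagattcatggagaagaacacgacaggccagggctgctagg

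The 4 motifs were chosen after these windows had been read. The Y box was searched as GATTGG, the letters that NF-Y binds, and it lies in the promoters of both MHC classes. It was present in 8 of 8 class II genes with a window and in 13 of 19 class I genes. Of all 27025 genes with a window 18.2% held it. The X1 box, where the RFX complex binds beside it, was searched as AGNAACNGA alone. Other forms of the box were not searched, so a window without a match may still hold one. These letters were found in 4 of 8 class II genes (H2-DMb1, H2-Eb1, H2-Eb2 and H2-Oa) and in 0 of 19 class I genes. Of all genes with a window 6.16% held them. In H2-Eb1 the X1 match began 92 bases before the start and the nearer Y match 60 bases before it. In H2-DMb1 the corresponding distances were 95 and 62 bases and in H2-Eb2 133 and 101 bases, so the spacing was nearly the same. The H2-Oa match was placed differently. It lay on the opposite strand across the start, beginning 4 bases before it, and its Y match lay upstream, 44 bases before the start.

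An NF-kB motif, GGGANTCCC, was found in H2-K1, H2-D1, H2-Q6 and H2-Q7 and in 0.903% of all genes with a window. The interferon response motif was searched loosely as AANNGAAA, which 26.7% of all genes with a window held. It was present in 15 of 19 class I genes, in 4 of 8 class II genes and in none of the windows of Tap1, Tapbp and the 3 immunoproteasome genes. H2-Q10 held the interferon motif but neither the NF-kB letters nor the Y box letters. The same was true of H2-M2, H2-M3, H2-Q2 and H2-T3. The starts of Tap1 and Psmb9 are 226 bases apart and point away from each other, so that the Y box match in the window of Tap1 and that in the window of Psmb9 are the same bases. Matches of different motifs overlapped in 1 window, that of H2-Oa. A match describes letters only, and binding was not measured in these livers.

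Class II genes rose in NASH. Of the 10 tested, 9 were called higher than in Control and 0 lower, against 15.3% of all tested genes called higher and 3.03% called lower. Their median log2 fold change was 3.27 (range 1.05 to 3.64), and that of all tested genes was 0.013. The chains of the classical class II molecule H2-A, the chain of H2-E, the invariant chain and the peptide exchange factors rose together by about the same factor.

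Cd74, the invariant chain that guards the class II groove, was the most abundant class II gene. Its level was 42.3, 81.5 and 112 TPM in the Control mice, 1077, 1331 and 1389 TPM in the NASH mice and 676, 422 and 442 TPM in the NASH+Exercise mice. The 3 groups did not overlap, and the NASH mice were the highest. Cd74 rose in NASH by 3.59 ± 0.32 on the log2 scale (SE, adjusted p = 2.51e-05, edgeR).

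H2-Aa encodes the alpha chain of H2-A. It was at 18.3, 33.1 and 49.7 TPM in Control, 448, 593 and 620.0 TPM in NASH and 307, 181 and 202 TPM in NASH+Exercise. Its beta chain partner H2-Ab1 was at 17.7, 36.2 and 47.0 TPM in Control, 431, 485 and 562 TPM in NASH and 278, 166 and 181 TPM in NASH+Exercise. Both separated the groups without overlap, in the same order as Cd74. In NASH H2-Aa rose by 3.62 ± 0.32 and H2-Ab1 by 3.45 ± 0.32 on the log2 scale (adjusted p = 2.77e-05 and 4.15e-05, edgeR). The ratio of the alpha to the beta chain was 1.0 ± 0.076 in Control mice, 1.12 ± 0.094 in NASH mice and 1.10 ± 0.011 in NASH+Exercise mice (TPM ratio, mean ± SD, n = 3 mice).

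H2-Eb1 encodes the beta chain of the other class II molecule, H2-E. It was at 7.14, 14.8 and 20 TPM in Control, 198, 231 and 270.1 TPM in NASH and 121, 73.2 and 79.4 TPM in NASH+Exercise, again without overlap. It rose in NASH by 3.64 ± 0.33 on the log2 scale (adjusted p = 3.74e-05, edgeR). H2-Ea, the gene of its alpha chain partner, is annotated as a transcribed pseudogene, and 1 count was assigned to it in 1 of the 9 mice. H2-Eb2 had at most 3 counts in each Control mouse 22, 29 and 32 counts in the NASH mice and 12, 4 and 7 counts in the NASH+Exercise mice, and was called higher in NASH.

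H2-DMa and H2-DMb1 form the factor that takes the invariant chain remnant out of the groove. H2-DMa was at 1.75, 3.57 and 3.80 TPM in Control, 30.8, 33.7 and 48.6 TPM in NASH and 19, 12.8 and 12.8 TPM in NASH+Exercise. H2-DMb1 was at 1.66, 3.80 and 5.67 TPM in Control, 44.5, 49.0 and 58.5 TPM in NASH and 27.6, 21.1 and 18.1 TPM in NASH+Exercise. For both genes the lowest NASH mouse was above the highest mouse of each other group. They rose in NASH by 3.04 ± 0.30 and 3.36 ± 0.32 on the log2 scale (adjusted p = 4.48e-05 and 4.29e-05, edgeR).

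The second beta chain gene H2-DMb2 and the H2-O genes, which encode an inhibitor of H2-DM, were much rarer, at 6.99 TPM or less in every mouse. H2-DMb2 rose by 3.19 ± 0.60 and H2-Oa by 2.78 ± 0.40 on the log2 scale (adjusted p = 0.00225 and 0.000444, edgeR). H2-Ob was the 1 class II gene that was not called. It was at 0.43, 0.19 and 1.12 TPM in Control and 1.35, 1.45 and 1.86 TPM in NASH, with a log2 fold change of 1.05 ± 0.52 and an adjusted p of 0.141 (edgeR). In CPM the Control and NASH mice overlapped. It was called in 2 of 16 alternatives, on log2(TPM + 0.1) and without Control replicate 29.

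Ciita, the class II transactivator, changed with the class II genes. Its level was 0.05, 0.18 and 0.52 TPM in Control, 5.55, 4 and 4.43 TPM in NASH and 2.37, 1.64 and 1.21 TPM in NASH+Exercise. It rose by 3.83 ± 0.48 on the log2 scale in NASH (adjusted p = 0.000234, edgeR), and the groups did not overlap. Control mice spread widely for this gene, with 4, 16 and 37 counts. In TPM the order of the Control mice, lowest in replicate 3 and highest in replicate 29, was the same for Ciita, Cd74, H2-Aa, H2-Ab1 and H2-Eb1. In CPM H2-Ab1 was slightly higher in replicate 4 (33.4) than in replicate 29 (32.9).

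**Figure D1:**
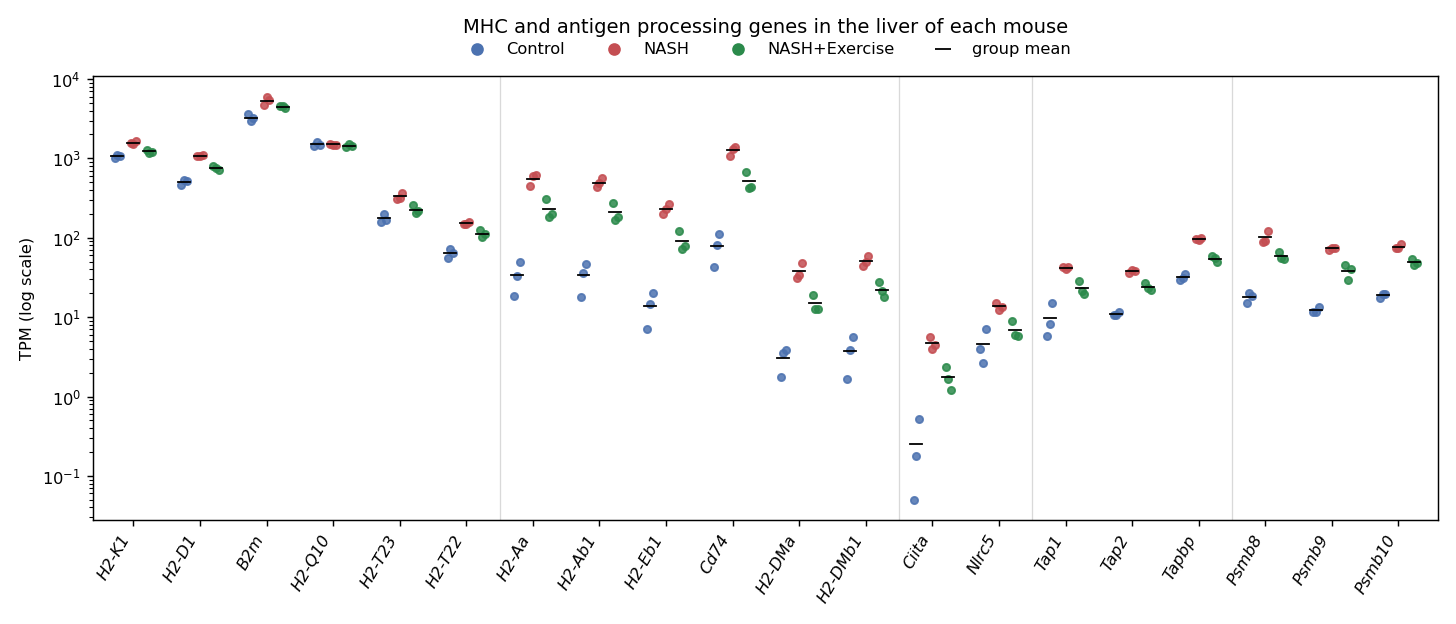
TPM (log scale) of 20 members in each mouse, with a black line at the group mean. Vertical lines separate class I, class II, the transactivators, peptide loading and the immunoproteasome. The class II genes and Ciita span more than 1 order of magnitude between Control and NASH, whereas H2-K1, B2m and H2-Q10 lie in a narrow band in all 9 mice.

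The class I genes differed less. Of the 20 tested, 8 were called higher in NASH and 0 lower, beside the same 15.3% of all tested genes. With library size alone or on either TPM scale 12 were called, with H2-D1, H2-Q6, H2-Q7 and H2-T22 added. The median log2 fold change was 0.89, or 0.78 without H2-Q8, which had reads in 3 of the 9 mice. The called genes were H2-M2, H2-M3, H2-T-ps, H2-T10, H2-Q1, H2-T24, H2-Q2 and H2-Q4. None of the 6 most abundant class I genes was among them. H2-Q4, the most abundant of the called genes, was at 43.5, 33.8 and 56.4 TPM in Control and 115, 136 and 135 TPM in NASH, and rose by 1.12 ± 0.14 on the log2 scale (adjusted p = 0.000154, edgeR). Sequence is shared between the H2-Q, H2-T, H2-K and H2-D genes, so the split of reads among these copies is uncertain.

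H2-K1 and H2-D1 are the classical heavy chains that present to CD8 T cells. H2-K1 was at 1018, 1112 and 1072 TPM in Control, 1547, 1537 and 1651 TPM in NASH and 1269, 1179 and 1221 TPM in NASH+Exercise. On this scale the groups were apart, but after TMM scaling they overlapped at 1203 ± 203, 1312 ± 131 and 1251 ± 121 CPM (mean ± SD, n = 3 mice). The log2 fold change in NASH was 0.12 ± 0.17 (adjusted p = 0.598, edgeR), and it was -0.0058 without Control replicate 29.

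H2-D1 was at 466, 539.6 and 520.1 TPM in Control, 1063, 1081 and 1109 TPM in NASH and 808, 761 and 721 TPM in NASH+Exercise. NASH was also the highest group in CPM, without overlap. The log2 fold change in NASH was 0.65 ± 0.16 (adjusted p = 0.0094, edgeR), below the fold needed for a call. With library size alone it was 1.01 and was called.

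B2m, the light chain shared by all class I molecules, was the most abundant member. It was at 3589, 2963 and 3267 TPM in Control, 4655, 5997 and 5409 TPM in NASH and 4634, 4524 and 4309.7 TPM in NASH+Exercise. The log2 fold change in NASH was 0.27 ± 0.16 (adjusted p = 0.205, edgeR), and the CPM of Control and NASH overlapped. In CPM every NASH+Exercise mouse was above every Control mouse. B2m per heavy chain was 0.951 ± 0.146, 1.07 ± 0.136 and 1.12 ± 0.018 in the 3 groups (TPM ratio, mean ± SD, n = 3 mice), with overlap between Control and NASH. The highest Control mouse (1.101) was just below the lowest NASH+Exercise mouse (1.107).

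H2-Q10 encodes a secreted class I heavy chain made mainly by the liver. It was at 1434, 1603 and 1479.8 TPM in Control, 1539, 1491 and 1470.0 TPM in NASH and 1392, 1497 and 1431 TPM in NASH+Exercise, with all groups overlapping. After TMM scaling it was lower in each NASH mouse than in each Control mouse, at 1102 ± 76.8 against 1509 ± 291 CPM, with a log2 fold change of -0.45 ± 0.17 (adjusted p = 0.066, edgeR). H2-Q10 made up 43.5% ± 0.741 of the heavy chain TPM in Control mice, 29.95% ± 1.35 in NASH mice and 36.1% ± 2.16 in NASH+Exercise mice (mean ± SD, n = 3 mice). These shares did not overlap between groups, and as shares within a mouse they do not depend on the scaling between libraries. H2-Q10 was the most abundant heavy chain in every Control mouse, while H2-K1 was above it in every NASH mouse.

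The nonclassical chains H2-T23, which is Qa-1 and is seen by NK cell receptors, and H2-T22, a ligand of gamma delta T cells, followed. H2-T23 was at 157, 198 and 169 TPM in Control, 309.9, 319 and 371 TPM in NASH and 258, 206 and 215 TPM in NASH+Exercise. H2-T22 was at 56.4, 72.6 and 64.8 TPM in Control, 147, 149 and 158 TPM in NASH and 124, 103 and 110.4 TPM in NASH+Exercise. Their log2 fold changes in NASH were 0.48 ± 0.18 and 0.78 ± 0.17 (adjusted p = 0.0609 and 0.0045, edgeR), and neither was called, though H2-T22 was in 3 of 16 alternatives. In CPM Control and NASH overlapped for H2-T23 and not for H2-T22. H2-M3, which presents formylated bacterial peptides, was at 1.2, 1.56 and 2.18 TPM in Control and 6.13, 7.38 and 7.58 TPM in NASH. It rose by 1.67 ± 0.26 on the log2 scale (adjusted p = 0.000768, edgeR).

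H2-M2 had 4, 0 and 2 counts in the Control mice, 52, 178 and 92 counts in the NASH mice and 57, 39 and 38 counts in the NASH+Exercise mice. It was called higher in NASH, but its fold change rests on these few Control counts. The 6 class I genes that were not tested, H2-M10.2, H2-M10.4, H2-M10.6, H2-M11, H2-M5 and H2-T3, were at or below 0.21 TPM in every mouse.

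**Figure D2:**
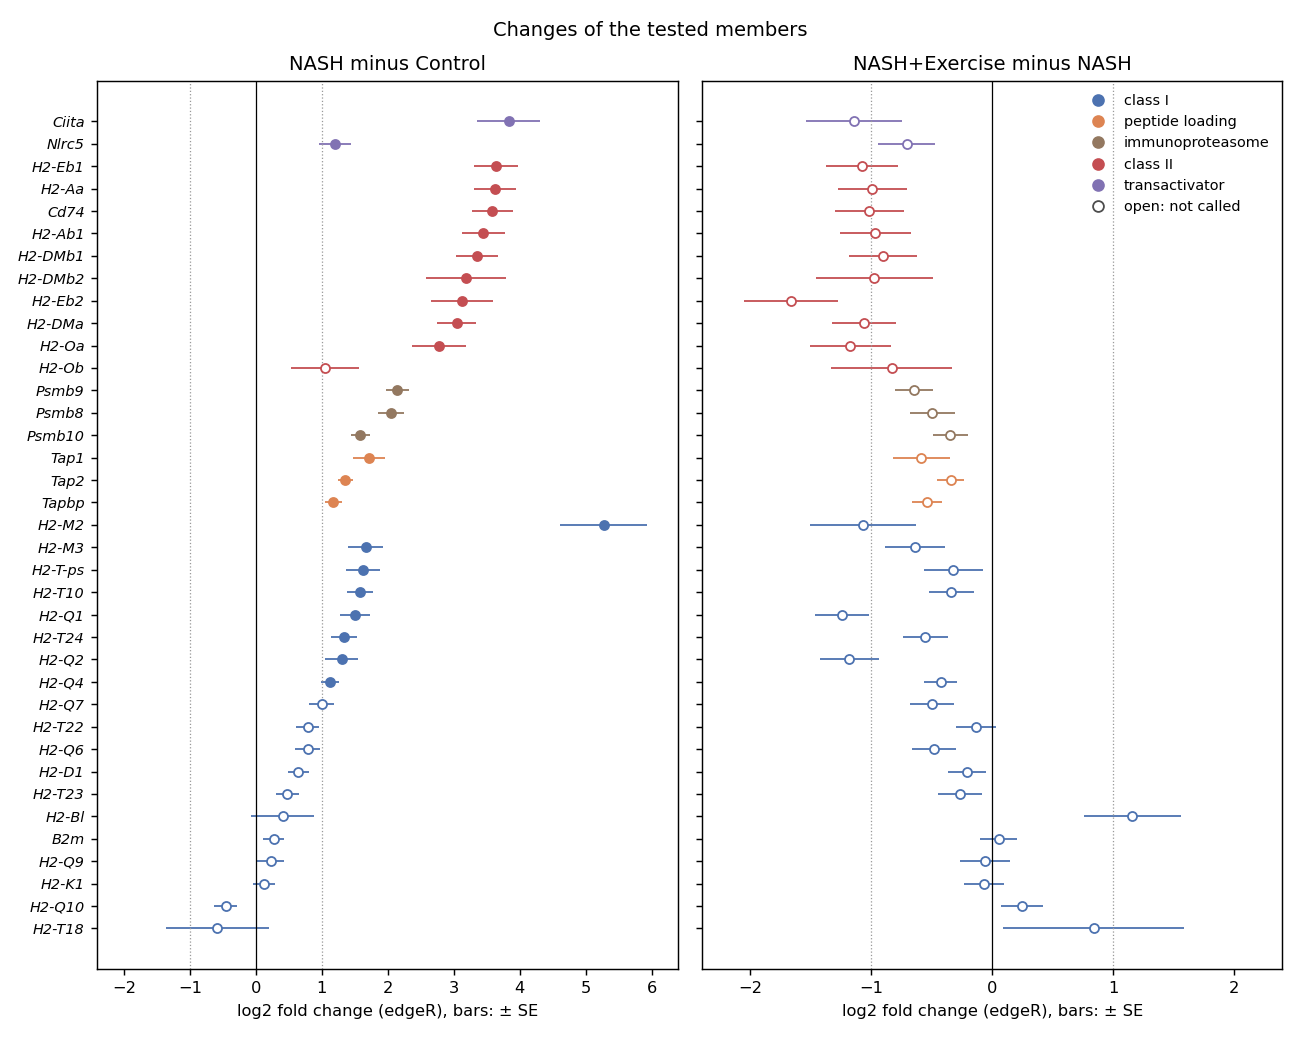
Log2 fold change from edgeR with its standard error for 37 of the 38 tested members (H2-Q8, with reads in 3 mice, is left out), NASH minus Control on the left and NASH+Exercise minus NASH on the right. Filled points passed the call and open points did not. Class II genes other than H2-Ob lie at 2.78 or above on the left, class I genes other than H2-M2 lie at 1.67 or below, and no point is filled on the right.

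Class I and class II were also compared as sums within each mouse. The heavy chains summed to 3259 to 3655 TPM in Control, 4934 to 5155 TPM in NASH and 3892 to 4131 TPM in NASH+Exercise. With TMM-scaled CPM the same sums overlapped between all groups, at 3693 ± 668, 3991 ± 336 and 3889.5 ± 314 (mean ± SD, n = 3 mice), so the size of the difference and the separation of the groups depended on the scale, while the order of the means was the same on both. The class II chains summed to 43.2 to 117 TPM in Control, 1079 to 1453 TPM in NASH and 420 to 705 TPM in NASH+Exercise, and they did not overlap on either scale.

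The ratio of class I to class II chains, which needs no scaling between libraries, was 75.4, 43.4 and 29.7 in Control, 4.57, 3.78 and 3.55 in NASH and 5.86, 9.42 and 8.41 in NASH+Exercise. The groups did not overlap, with NASH lowest. The mean ratio was 49.5 ± 23.5, 3.97 ± 0.538 and 7.90 ± 1.84 (SD, n = 3 mice). It is given without a test, since it is a score over the members. Cd74 followed its partners closely, with a ratio to the class II chains of 0.969 ± 0.0095, 0.991 ± 0.031 and 0.973 ± 0.028 in Control, NASH and NASH+Exercise.

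**Figure D3:**
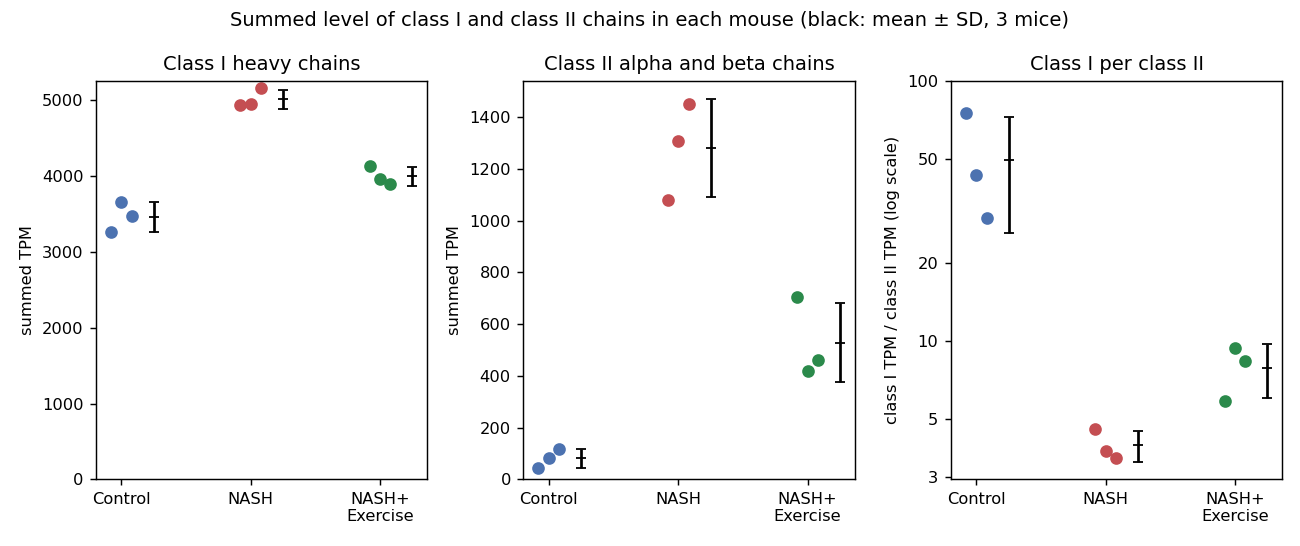
Summed TPM of the class I heavy chains, summed TPM of the class II alpha and beta chains, and their ratio (log scale) in each mouse, with the mean and SD in black. The class II sum lies between 43.2 and 117 TPM in Control and between 1079 and 1453 TPM in NASH, and the ratio lies between 29.7 and 75.4 in Control and between 3.55 and 4.57 in NASH.

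The genes that feed peptides to class I rose in NASH. All 3 peptide loading genes and all 3 immunoproteasome subunits were called higher, beside 15.3% of all tested genes. Tap1, a subunit of the peptide transporter, was at 5.77, 8.09 and 15.1 TPM in Control, 42.5, 41.0 and 42.4 TPM in NASH and 28.3, 21.0 and 19.7 TPM in NASH+Exercise. It rose by 1.72 ± 0.25 on the log2 scale (adjusted p = 0.000457, edgeR).

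Its partner Tap2 was at 10.6, 10.5 and 11.5 TPM in Control, 35.8, 39.2 and 38.3 TPM in NASH and 27.0, 23.5 and 22.2 TPM in NASH+Exercise. Tapbp, which encodes tapasin, was at 29.2, 31.0 and 34.9 TPM in Control, 97.0, 92.8 and 100.1 TPM in NASH and 58.5, 55.3 and 48.9 TPM in NASH+Exercise. Both had all NASH mice above all others and all Control mice below them. In NASH they rose by 1.36 ± 0.11 and 1.18 ± 0.13 on the log2 scale (adjusted p = 1.5e-05 and 6.67e-05, edgeR).

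Interferon gamma makes cells replace 3 catalytic subunits of the proteasome, Psmb5, Psmb6 and Psmb7, by Psmb8, Psmb9 and Psmb10. Psmb8 was at 15.1, 20.0 and 18.7 TPM in Control, 89.6, 92.3 and 121 TPM in NASH and 66.4, 55.2 and 54.5 TPM in NASH+Exercise. Psmb9 was at 11.7, 11.7 and 13.2 TPM in Control, 70.5, 74.1 and 75.3 TPM in NASH and 44.9, 29.1 and 40.4 TPM in NASH+Exercise. Psmb10 was at 17.6, 19.5 and 19.3 TPM in Control, 74.2, 73.4 and 83.5 TPM in NASH and 54.3, 45.7 and 48.1 TPM in NASH+Exercise. The 3 groups did not overlap for any of these genes. In NASH they rose by 2.05 ± 0.20, 2.14 ± 0.17 and 1.59 ± 0.15 on the log2 scale (adjusted p = 3.29e-05, 1.17e-05 and 2.97e-05, edgeR).

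After TMM scaling the constitutive counterparts went the other way without passing the call. The size of this fall depends on the scaling, since without TMM the median of all tested genes in NASH was 0.36 instead of 0.013. Psmb5, Psmb6 and Psmb7 had log2 fold changes of -0.64, -0.52 and -0.46 in NASH (adjusted p = 0.0106, 0.0162 and 0.0116, edgeR). The ratio of Psmb8 to Psmb5 was 0.123 ± 0.015 in Control mice, 0.796 ± 0.151 in NASH mice and 0.463 ± 0.083 in NASH+Exercise mice (TPM ratio, mean ± SD, n = 3 mice). That of Psmb9 to Psmb6 was 0.0706 ± 0.0011, 0.451 ± 0.024 and 0.237 ± 0.048, and that of Psmb10 to Psmb7 was 0.123 ± 0.017, 0.513 ± 0.045 and 0.339 ± 0.020. For each pair all mice of a group lay apart from those of the other groups. The constitutive subunit was the more abundant one in all 9 mice, though Psmb8 reached 0.97 of Psmb5 in NASH replicate 20.

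**Figure D4:**
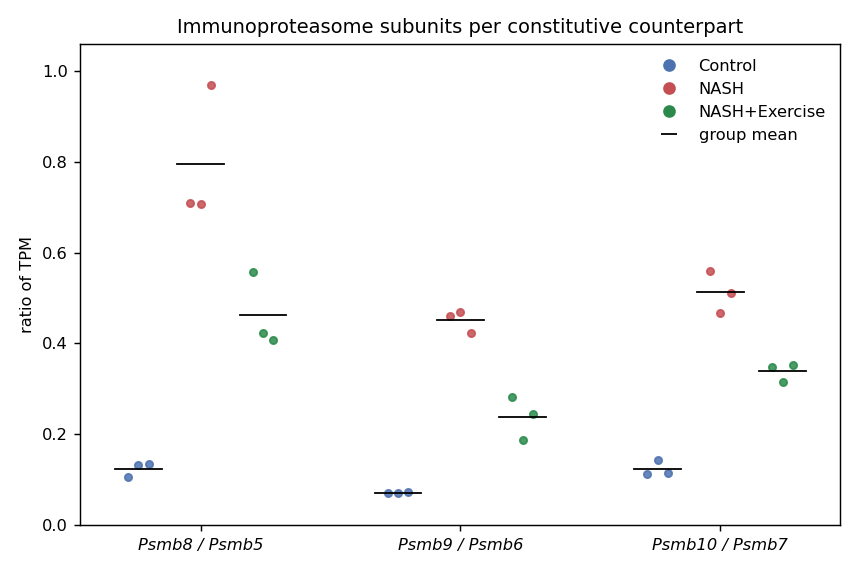
Ratio of TPM of each immunoproteasome subunit to the constitutive subunit it replaces, in each mouse, with a black line at the group mean. For all 3 pairs the Control mice lie lowest, the NASH+Exercise mice between and the NASH mice highest.

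Nlrc5, the class I transactivator, was at 3.99, 2.61 and 7.19 TPM in Control, 15.2, 12.4 and 13.3 TPM in NASH and 8.85, 6.03 and 5.74 TPM in NASH+Exercise. It rose in NASH by 1.2 ± 0.24 on the log2 scale (adjusted p = 0.00344, edgeR). Without Control replicate 4 the value was 0.97, below the fold needed for a call. Control and NASH+Exercise mice overlapped for Nlrc5 and were apart for Ciita.

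Across all 38 tested members, 25 were called higher in NASH and 0 lower. By adjusted p alone 29 were higher, against 21.2% of all tested genes. In 29 members every NASH mouse was above every Control mouse, and 27.4% of all tested genes showed this. H2-Q10 was the 1 member with every NASH mouse below every Control mouse in CPM. For members called, the count stayed at 25 or 26 when any 1 mouse was left out.

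After training the class II genes were lower in every case, though none passed the call in edgeR. Of the 38 members, 0 were called in NASH+Exercise against NASH in either direction, where 0.14% of all tested genes were called and 0.0367% were called lower. At an unadjusted p under 0.05 in edgeR, 24 members were lower and 1 was higher, and 10.7% of all tested genes were lower. In 25 members every NASH+Exercise mouse was below every NASH mouse in CPM, which held for 14.9% of all tested genes. The smallest adjusted p was 0.0855 (H2-Q1, edgeR).

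The class II genes had a median log2 fold change of -1.0 after training, and all 10 were below 0, from -1.66 to -0.83. Of these, 9 were lower in every NASH+Exercise mouse than in every NASH mouse, with H2-Ob as the exception. In CPM this held for 14.9% of all tested genes. Cd74 differed by -1.01 ± 0.29, H2-Aa by -0.99 ± 0.29 and H2-Ab1 by -0.97 ± 0.29 (adjusted p = 0.165, 0.176 and 0.19, edgeR). H2-Eb1 differed by -1.08 ± 0.30, H2-DMa by -1.06 ± 0.27 and H2-DMb1 by -0.91 ± 0.28 (adjusted p = 0.16, 0.136 and 0.196, edgeR). Ciita differed by -1.14 ± 0.40 (adjusted p = 0.234, edgeR). These values were close to each other.

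DESeq2, fitted on the 6 mice of this comparison alone, called 5 members lower, namely H2-Eb1, H2-DMa, Ciita, H2-Q1 and H2-Q2, against 0.936% of the genes it tested. By its adjusted p alone 12 members were lower, including 6 class II genes, Ciita, Nlrc5 and 2 peptide loading genes, and 2.15% of all genes were. The log2 fold change of H2-Eb1 was -1.03 ± 0.19 in that fit. The count of calls in this comparison therefore rests on the tool, while the sign of the class II values does not.

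The class I genes had a median log2 fold change of -0.29 after training, with 15 of 20 below 0. H2-K1 differed by -0.07 ± 0.17, H2-D1 by -0.21 ± 0.16 and B2m by 0.05 ± 0.16 (adjusted p = 0.886, 0.563 and 0.909, edgeR). B2m was below 0 in 4 of the alternatives, among them library size alone (-0.16). H2-Q1 and H2-Q2 stood lower than the rest of their class, at -1.24 ± 0.22 and -1.18 ± 0.24 (adjusted p = 0.0855 and 0.108, edgeR). H2-Q1 was at 12.4, 18.6 and 18.3 TPM in NASH and 7.96, 4.52 and 4.91 TPM in NASH+Exercise, which overlapped with Control at 5.12, 2.81 and 5.20 TPM. H2-Bl, a pseudogene with 4 to 20 counts per mouse, was the 1 member higher after training at an unadjusted p under 0.05.

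The loading genes and the immunoproteasome lay between. Tap1, Tap2 and Tapbp differed by -0.58 ± 0.24, -0.34 ± 0.11 and -0.54 ± 0.12 after training (adjusted p = 0.279, 0.2 and 0.125, edgeR). Psmb8, Psmb9 and Psmb10 differed by -0.50 ± 0.19, -0.65 ± 0.16 and -0.35 ± 0.14 (adjusted p = 0.256, 0.132 and 0.287, edgeR). All 6 were lower in every NASH+Exercise mouse than in every NASH mouse, which in CPM held for 14.9% of all tested genes. Nlrc5 differed by -0.71 ± 0.24 (adjusted p = 0.22, edgeR), also without overlap.

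The trained mice were not alike. NASH+Exercise replicate 8 had the highest value of its group in 10 of 10 class II genes, and replicate 18 the lowest in 8 of 10. NASH replicate 20 was the highest of its group in 9 of 10. Without NASH+Exercise replicate 8 the class II median after training was -1.20, and without NASH replicate 20 it was -0.83. In both cases 0 members were called by edgeR.

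Trained mice still differed from Control. Against Control, 19 members were called higher in NASH+Exercise and 0 lower, beside 10.4% of all tested genes called higher and 3.07% called lower. Among them were 8 of 10 class II genes, with a median log2 fold change of 2.33 over the 10, the 3 immunoproteasome subunits, Tap1, Tap2 and Ciita. Cd74 was higher than in Control by 2.57 ± 0.30 and Psmb9 by 1.50 ± 0.17 on the log2 scale (adjusted p = 0.000226 and 0.000152, edgeR). The class I median was 0.47, and 5 of 20 were called (H2-Bl, H2-M2, H2-M3, H2-T-ps and H2-T10). This count was 3 without Control replicate 3 and 3 without NASH+Exercise replicate 8. The class II count was 6 without NASH+Exercise replicate 8, where H2-DMb2 and H2-Oa lost the call. Tap2 was close to the limit of a call at 1.02 ± 0.11, and Tap1 was at 0.87 without Control replicate 3. The comparisons share the Control or the NASH mice, so they are not independent of each other.

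Other genes of antigen presentation were taken from lists of antigen processing partners, transcription control, costimulation and constitutive proteasome subunits. Of 42 tested, 15 were called higher and 0 lower in NASH, against 15.3% and 3.03% of all tested genes. In NASH+Exercise 0 were called against NASH, where 0.14% of all tested genes were. Against Control 14 were called higher in NASH+Exercise, beside 10.4% of all tested genes. All 6 costimulation genes were called higher in NASH. Their median log2 fold change was 2.94. Cd86, which delivers the second signal to T cells, rose by 3.01 ± 0.32 (adjusted p = 5.77e-05, edgeR). Pdcd1lg2, a ligand of the inhibitory receptor PD-1, had 0, 2 and 0 counts in Control and 13, 17 and 11 counts in NASH, and was also called.

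Of the antigen processing partners 4 of 17 were called higher, Ctss, Ifi30, Lgmn and Mr1. This share was not far from the 15.3% of all tested genes. By adjusted p alone 10 were higher and 3 lower (Psme3, Cd1d1 and Fcgrt), beside 2886 higher and 1960 lower of all 13619 tested genes. Ctss, the cathepsin that trims the invariant chain in antigen presenting cells, was at 15.1 ± 7.9 TPM in Control, 297 ± 86 TPM in NASH and 141 ± 51 TPM in NASH+Exercise (mean ± SD, n = 3 mice). It rose in NASH by 3.93 ± 0.32 on the log2 scale (adjusted p = 2.1e-05, edgeR). Ifi30, the lysosomal thiol reductase that unfolds antigens, rose by 2.86 ± 0.16 (adjusted p = 3.79e-06, edgeR). After training they differed by -0.80 ± 0.29 and -0.47 ± 0.15 (adjusted p = 0.242 and 0.188, edgeR). Against Control, Ctss was still higher in NASH+Exercise by 3.13 ± 0.31 and Cd86 by 2.66 ± 0.32 (adjusted p = 0.000114 and 0.000209, edgeR).

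Of the 16 tested transcription control genes 5 were called higher in NASH, among them Irf1 and Irf8, beside the same 15.3%. Irf1, an interferon-induced transcription factor, rose by 1.38 ± 0.13 on the log2 scale (adjusted p = 3.31e-05, edgeR). After training Irf1 differed by -0.20 ± 0.13 (adjusted p = 0.497, edgeR). Ifng itself was listed at 0 in the 3 Control mice, with 7 to 8 counts in NASH and 3 to 5 in NASH+Exercise, and was too rare to be tested. Rfx5, the subunit of the complex that binds the X1 box, had a log2 fold change of 0.34 ± 0.18 in NASH (adjusted p = 0.157, edgeR), and no subunit of the RFX or NF-Y complexes was called.

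Markers of several immune cell types were measured beside these genes. In NASH 8 of 10 dendritic cell markers, 8 of 9 macrophage markers, 8 of 8 tested T and NK cell markers and 1 of 6 tested B cell markers (Cd22) were called higher, beside 15.3% of all tested genes, as was the pan-leukocyte marker Ptprc. The summed dendritic cell markers lay between 4.42 and 7.56 TPM in Control, 27.9 and 41.6 TPM in NASH, and 10.99 and 25.8 TPM in NASH+Exercise. The summed macrophage markers were 65.9 to 135 TPM, 886 to 1197 TPM and 586 to 747 TPM, and the B cell markers 3.03 to 8.98 TPM, 10.5 to 13.3 TPM and 3.93 to 7.84 TPM in the same order. Between the means of Control and NASH the summed TPM of the class II chains was 15.7-fold higher, that of the macrophage markers 11.5-fold, that of the dendritic cell markers 5.76-fold and that of the B cell markers 2.31-fold. Without Lyz2 the value for the macrophage markers was 6.70-fold. In TMM-scaled CPM that for the class II chains was 11.8-fold.

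After training the ratio of mean summed TPM to NASH was 0.413 for the class II chains. It was 0.623 for the macrophage markers (0.699 without Lyz2) and 0.506 for the dendritic cell markers. For the B cell markers it was 0.492 and for the T and NK cell markers 0.502. These ratios depend on the scale, and in TMM-scaled CPM that of the class II chains was 0.499. On log2(TPM + 1) the median of all tested genes was -0.26, against -0.033 with TMM. In CPM every trained mouse was below every NASH mouse in 3 of 10 dendritic cell, 2 of 9 macrophage and 2 of 6 B cell markers. This held for 5 of 8 T and NK cell markers and for 14.9% of all tested genes. None of the tested markers was called in NASH+Exercise against NASH, where 0.14% of all tested genes were. NASH+Exercise replicate 8, the trained mouse with the highest class II levels, also had the highest sum of its group for each of these lists. Control replicate 29, the Control mouse with the most class II in 6 of 10 genes, likewise had the highest sums in Control. Both mice were also the highest of their groups for the summed sinusoidal endothelial and hepatocyte markers. This order was thus not particular to the immune lists. Of 6 sinusoidal endothelial markers 1 (Lyve1) was called higher in NASH, beside 15.3% of all tested genes. The 6 markers summed to 54.3 to 116 TPM in Control, 116 to 151 TPM in NASH and 82.4 to 122 TPM in NASH+Exercise. Of 7 hepatocyte markers 1, Cyp2e1, was called lower in NASH and 0 higher, beside 3.03% and 15.3% of all tested genes. All 7 were below 0 after TMM scaling, with a median of -0.83 on the log2 scale. By adjusted p alone 4 were lower (edgeR), beside 1960 of all 13619 tested genes. Their summed TPM overlapped, at 118377 to 124444 in Control and 97113 to 118992 in NASH. After training the direction depended on the scale, with an edgeR median of 0.37 and a ratio of mean summed TPM to NASH of 0.883. No list had a marker at 0 in every mouse of a group, though Ccr7 was at 0 in a Control mouse and Ncr1 in a Control and a NASH+Exercise mouse. The part of these cells in the levels of the MHC genes was not tested.

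**Figure D5:**
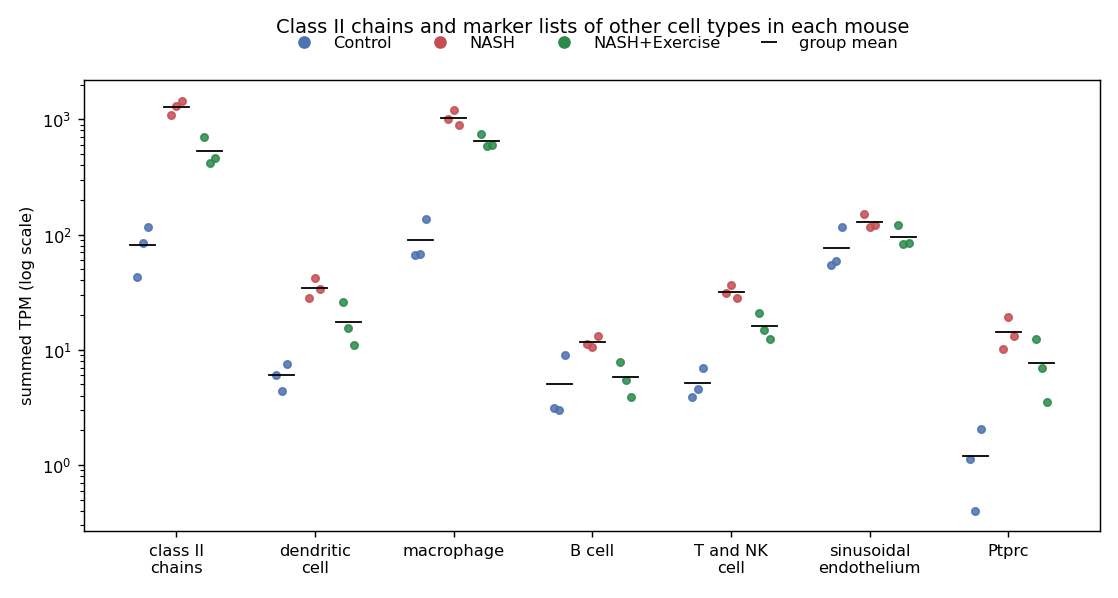
Summed TPM (log scale) of the class II chains and of marker lists for other cell types, and the TPM of Ptprc, in each mouse, with a black line at the group mean. Control is lowest in mean for each list. In summed TPM the NASH and NASH+Exercise mice do not overlap for the class II chains. The same holds for the dendritic cell, macrophage, B cell and T and NK cell markers. The NASH and NASH+Exercise mice overlap for the sinusoidal endothelial markers and Ptprc.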

How the data were processed

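Whole liver RNA of 9 mice, 3 each of Control, NASH and NASH+Exercise, was sequenced. The authors deposited an estimated count (the expected count of reads) per gene and mouse, with the TPM and FPKM derived from it. The submitters' processing notes name HISAT2 2.1.0, Bowtie2 2.2.5, RSEM 1.2.8 and GRCm38.p6, without role or order. The annotation is not given in the sources used here. FPKM was not used.

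Counts were rounded to whole numbers (29.0% to 32.8% of the values per mouse were not whole) and scaled by TMM. Genes were kept by filterByExpr (minimum count 10, total 15), which left 13619. edgeR 4.0.16 (R 4.3.3) fitted all 9 mice with a quasi-likelihood model, and p-values were adjusted by Benjamini-Hochberg over all tested genes. Calls were made at an adjusted p under 0.05 with a log2 fold change beyond 1 or -1. The procedure was tested on simulated data. Alternatives used DESeq2 1.42.0, limma 3.58.1 on log2(TPM + 1) and log2(TPM + 0.1), other scalings, no filter, and each mouse left out. CPM are TMM-scaled. No batch is given in the labels. With 3 mice against 3, exact permutation of single values cannot go below p = 0.1.

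Gene symbols came from RefSeq for 17728 genes and from GENCODE for 13, and 105 had none. Members and gene lists were chosen with earlier results of these data known. Values in every mouse were planned for the classical class I genes, B2m, the 3 other most abundant heavy chains, the main class II genes, both transactivators, and the loading and immunoproteasome genes. From the pathway lists, Psmb5, Psmb6, Psmb7, Ifng, Irf1, Rfx5, Ctss, Ifi30 and the 3 largest calls per comparison were planned, and 1 further gene is not reported here. Other members and genes named singly were chosen after their values were seen.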

Additional observations from a re-analysis of the deposited data

How the results depend on the processing

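Of the counts and medians recomputed under the alternatives, 273 values stayed close to those reported and 27 moved, and of those of single genes 1362 kept direction and call, 17 lost the call, 12 gained it and 16 turned. No paired analysis was possible because the groups share no replicate numbers. Scaling mattered most for class I. Its median in NASH against Control was 1.24 with library size alone, 1.15 with log2(TPM + 1), 1.34 with log2(TPM + 0.1) and 0.70 to 1.01 with 1 mouse left out. In NASH+Exercise against NASH it was -0.48, -0.55 and -0.60 in the same order of scalings, and against Control 0.63, 0.62 and 0.66, or 0.43 to 0.63 with 1 mouse left out. The class II median with log2(TPM + 0.1) was 3.88 in NASH against Control and -1.32 in NASH+Exercise against NASH. Members called in the latter comparison numbered 1 without the filter, 5 with DESeq2 and 3 with log2(TPM + 1). Class I made up 1, 2 and 1 of these and class II 2 of the DESeq2 calls and 1 of the log2(TPM + 1) calls. Class I calls against Control in NASH+Exercise numbered 2 with log2(TPM + 1), 8 by adjusted p alone and 3 to 6 with 1 mouse left out. Pathway genes past the adjusted p alone numbered 32 in NASH and 23 in NASH+Exercise against Control. The 32 were 25 higher and 7 lower, and the 23 were 21 higher and 2 lower, of 42 tested. By the same limit 2886 of all 13619 tested genes were higher and 1960 lower in NASH against Control. For NASH+Exercise against Control 2118 were higher and 1305 lower. Values that turned were small. In NASH+Exercise against NASH, B2m was at -0.16 with library size alone, -0.25 with both TPM scales and -0.021 without NASH replicate 5, with 0.12 as the highest value with 1 mouse left out. H2-K1 with 1 mouse left out ranged from -0.15 to 0.0061 (without NASH replicate 20), and it reached -0.37 over all alternatives. H2-Q10 was at -0.059, Psmb6 at -0.021 and Psmb7 at -0.048 on both TPM scales. With 1 mouse left out H2-K1 ranged from -0.0058 (without Control replicate 29) to 0.25 in NASH against Control, where it reached 0.56 over all alternatives, and from -0.055 (without Control replicate 29) to 0.22 in NASH+Exercise against Control, with -0.02 without NASH+Exercise replicate 22. Rfx5 in that comparison was at 0.0014 with library size alone and 0.00033 with log2(TPM + 1). The cause of these moves was not tested. Genes at few counts, such as H2-M2, H2-Bl and Ifng, are limited by depth.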
